A study of Polypedilum vanderplanki with 84 samples.

Results

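The gene g3611 encodes the heat shock factor (HSF) of the sleeping chironomid *Polypedilum vanderplanki* in the study's annotation. Its members are the rows of the expression table whose identifier without the transcript number is g3611, which gave 17 of 66333 transcripts, or 1 of 18248 genes. The identifiers could not be paired with an independent annotation, so the name HSF was taken from the study as it stands. All values come from Pv11, a cultured cell line of this midge, whose cells survive almost complete drying if they are first kept in trehalose. RNA was sequenced from 84 libraries in 28 groups of 3 replicates, measured as TPM (a transcript's share of its library after correction for transcript length, on a fixed total), so the level of a gene is its share of the library and not an amount per cell.

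The stress experiment held 54 libraries in 18 groups. Pv11 cells were exposed to 600 mM trehalose, 600 mM mannitol, NaCl, 20 µM paraquat (a herbicide that generates reactive oxygen species, labelled ROS) or a 15 min heat shock at 42 °C, or were left untreated (Control), and were sampled at 1, 3 and 24 h. The sources used here give different NaCl concentrations, so those groups are named by the salt alone. The time course held 30 libraries in 10 groups. Cells preconditioned in a trehalose mixture (PreCondTre) were sampled at 0, 12, 24, 36 and 48 h, and cells that had then been dried were sampled 0, 3, 12, 24 and 72 h into rehydration (Rehydration). Pv11 is 1 cell line in culture, so no group speaks for the larva, and the labels do not say whether replicates were separate cultures, so that p-values measure the spread between these libraries alone.

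Heat shock factors are the transcription factors of the heat shock response. In animals they are held inactive in unstressed cells, assemble into trimers when proteins are damaged, and bind heat shock elements, repeated short motifs upstream of genes for chaperones such as the heat shock proteins. Much of this control acts on the protein, so the RNA level of the factor and its activity are separate quantities. In *Drosophila* a single Hsf gene gives several spliced forms. In Pv11, HSF has been studied as a regulator of genes used in anhydrobiosis, the state in which a dried organism survives without metabolism.

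Sequencing depth is not known from TPM, so no counting interval is given. Between 24889 and 29846 transcripts had a value above 0 per library. The mean correlation of a library with the other libraries of its group was 0.892 in the median library and lowest, at 0.709, in Control 3 h replicate 2, and the comparisons with Control 3 h are therefore also given without that library. Median ratio scaling, which sets each library so that the typical gene stays level, gave factors between 0.585 in NaCl 3 h replicate 1 and 1.69 in Rehydration 12 h replicate 3. The TPM of the median gene therefore moved between groups, and its log2 change is given beside the larger shifts. Each change of direction of g3611 after scaling is stated.

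g3611 was among the more abundant genes of Pv11 in each group. Of the 9450 genes with a mean above 1 TPM it ranked between 133rd from the top, in PreCondTre 48 h, and 875th, in Control 24 h. Over the stress groups its summed TPM was highest after mannitol for 3 h, at 535 ± 54.4 TPM (SD, n = 3, as for all group means below), followed by trehalose for 24 h at 531 ± 128 TPM and trehalose for 3 h at 512 ± 60.9 TPM, and these 3 groups overlapped. Trehalose for 1 h (345 ± 27.5 TPM) lay clear of them and overlapped mannitol for 24 h (317 ± 69.5 TPM). NaCl for 24 h came next at 241 ± 19.2 TPM, and each later neighbour in the order overlapped the one before it, down to Control 24 h at 139 ± 15.0 TPM. In the time course the highest level was 1512 ± 20.9 TPM in PreCondTre 48 h and the lowest 338 ± 37.8 TPM in PreCondTre 0 h. Median ratio scaling moved this order. Mannitol for 3 h (619) then lay below trehalose for 3 h (681) and 24 h (720) without overlap, and Heat 3 h (145) was the lowest stress group. In the time course PreCondTre 36 h (1395) was then highest, overlapping 48 h (1349), and Rehydration 24 h (309) was lowest.

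**Figure D1:**
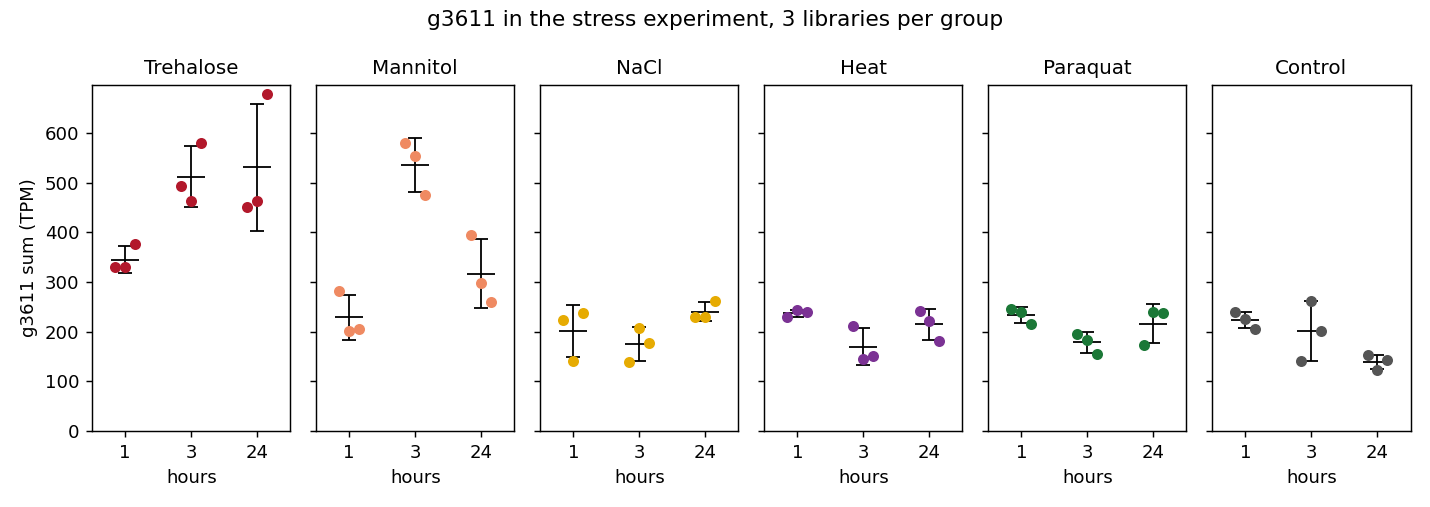
Summed TPM of the g3611 transcripts (vertical axis, from 0) at 1, 3 and 24 h (horizontal axis) in the 6 treatments of the stress experiment. Points are libraries and bars are the mean ± SD of 3 libraries. All trehalose libraries and the mannitol libraries at 3 and 24 h lie above the control libraries of their time. At 24 h the NaCl, heat and paraquat libraries do so too.

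Whether g3611 responds to each stress was asked by comparing each stress with the control of the same hour. A gene was called changed where the adjusted p of limma (Benjamini-Hochberg over all 9450 genes) was under 0.05 and the fold change above 2. By this rule g3611 rose in 4 of 15 stress comparisons, all of them with trehalose or mannitol, and fell in none. In bulk RNA, fewer cells of one kind and less RNA per cell cannot be told apart. The 5 stresses share their controls at each hour, so their changes are set side by side and not counted as independent.

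Trehalose, the sugar used for preconditioning, gave the largest rise of the stress experiment. After 24 h g3611 had 451, 463 and 678 TPM in trehalose, against 152, 123 and 142 TPM in the control. Each trehalose library lay above each control library, and the highest, replicate 3, stood well above the other two. The change was 1.90 on the log2(TPM + 1) scale (SE 0.19, adjusted p = 5.03e-11), a fold of 3.74 with a 95% interval of 2.85 to 4.91. At this hour 17.3% of all genes were called, the median gene moved by -0.13, and 1.61% of genes had a larger change than g3611 in the same direction.

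At 3 h g3611 had 493, 463 and 580.1 TPM in trehalose, against 141, 263 and 201 TPM in the control. The groups did not overlap, although the control library at 263 TPM is the one with the low correlation. The log2 change was 1.38 (SE 0.19, adjusted p = 6.48e-08), and 1.59 without that library, and after median ratio scaling it was 2.07. The median gene fell by 0.62 in the same comparison and 30.2% of genes were called, mostly downwards. At 1 h the values were 329, 329 and 377 TPM in trehalose, against 239, 226 and 206 TPM in the control, again without overlap. This log2 change of 0.62 (SE 0.19, adjusted p = 0.00973) passed the limit on p but was 1.54-fold, so it was not called, and 3.25% of genes were. The median gene was at -0.23, and the change was 0.90 after scaling.

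Mannitol, a sugar alcohol that raises the osmolarity of the medium, gave a rise at 3 and 24 h. At 1 h g3611 had 282, 201 and 205 TPM in mannitol, against 239, 226 and 206 TPM in the control, and the groups overlapped. The log2 change was 0.02 (95% interval -0.37 to 0.41, adjusted p = 0.939), with 3.82% of genes called and the median gene at -0.34. After median ratio scaling the groups did not overlap and the change was 0.41 (adjusted p = 0.00037), under 2-fold and so not called. At 3 h the values were 579, 553 and 474 TPM in mannitol, against 141, 263 and 201 TPM in the control. Every mannitol library was above every control library, the log2 change was 1.45 (SE 0.19, adjusted p = 2.63e-08), and it was 1.66 without Control 3 h replicate 2. Of all genes 25.2% were called and 2.24% had a larger change in this direction, with the median gene at -0.43.

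After 24 h in mannitol the values were 394, 297 and 259 TPM, against 152, 123 and 142 TPM in the control. The groups did not overlap and the log2 change was 1.16 (SE 0.19, adjusted p = 3.35e-06), while 13.2% of genes were called. This call was lost when Mannitol 24 h replicate 1, the highest library, was left out, at a log2 change of 0.996, just under 2-fold.

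NaCl, an ionic osmolyte, did not bring g3611 past both limits at any hour. At 1 h the values were 224, 141 and 237 TPM in NaCl, against 239, 226 and 206 TPM in the control, and at 3 h they were 139, 208 and 178 TPM in NaCl, against 141, 263 and 201 TPM in the control. Both pairs of groups overlapped, at log2 changes of -0.19 (adjusted p = 0.459) and -0.17 (adjusted p = 0.425). Of all genes 12.1% were called at 1 h and 40.0% at 3 h. The median gene was at -0.33 at 1 h and -0.75 at 3 h, and with median ratio scaling the log2 change of g3611 turned to 0.23 and 0.70, so its direction at these hours rests on the scaling. The change at 3 h also turned, to 0.04, without Control 3 h replicate 2.

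After 24 h g3611 had 230.1, 229 and 263 TPM in NaCl, against 152, 123 and 142 TPM in the control, without overlap. The log2 change was 0.79 (SE 0.19, adjusted p = 0.000655), or 1.73-fold, below the limit on fold, and it was 0.97 after median ratio scaling. At this hour 19.0% of genes were called and the median gene moved by -0.17.

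Heat shock itself did not raise the RNA of the heat shock factor at 1 h. g3611 had 229, 243 and 239 TPM after heat, against 239, 226 and 206 TPM in the control, and these values overlapped. The log2 change was 0.09 with a 95% interval from -0.31 to 0.48 (adjusted p = 0.844), which leaves out a rise of 2-fold, and it was -0.01 after median ratio scaling. In the same libraries 121 genes, 1.28% of those tested, were called, 109 of them upwards. At 3 h the values were 212, 146 and 150.4 TPM after heat, against 141, 263 and 201 TPM in the control, with a log2 change of -0.22 (adjusted p = 0.721), or -0.01 without Control 3 h replicate 2, and 0.487% of genes were called.

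At 24 h after heat g3611 had 241, 222 and 181 TPM, against 152, 123 and 142 TPM in the control. The groups did not overlap and the log2 change was 0.62 (SE 0.19, adjusted p = 0.0319), 1.54-fold and so not called. The median gene was higher by 0.27 in this comparison, 1.79% of genes were called, and the change of g3611 was 0.25 after median ratio scaling.

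Paraquat did not bring a call for g3611 at any hour. At 1 h g3611 had 246, 239 and 216 TPM in paraquat, against 239, 226 and 206 TPM in the control, and at 3 h it had 196, 183 and 156 TPM in paraquat, against 141, 263 and 201 TPM in the control. Both overlapped, with log2 changes of 0.06 (adjusted p = 0.853) and -0.13 (adjusted p = 1.00). The first became -0.16 after median ratio scaling, beside a median gene at 0.17, and the second became 0.08 without Control 3 h replicate 2. With limma no gene was called in either comparison, 0% of those tested, although 1456 genes at 1 h and 472 at 3 h had an unadjusted p under 0.05. At 24 h the values were 172, 239.8 and 238 TPM in paraquat, against 152, 123 and 142 TPM in the control. The log2 change was 0.62 (SE 0.19, adjusted p = 0.0429), 1.54-fold and not called, with 2.90% of genes called and the median gene at 0.29, and it was 0.24 after scaling.

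Control cells changed with time in the dish. g3611 had 152, 123 and 142 TPM in Control 24 h, against 239, 226 and 206 TPM in Control 1 h, without overlap. The log2 change was -0.68 (SE 0.19, adjusted p = 0.00364), 1.60-fold lower and not called, beside a median gene at -0.37 and 14.2% of genes called, and it was -0.23 after scaling. Control 3 h differed from Control 1 h by -0.19 (adjusted p = 0.531), with 1.72% of genes called and the median gene at 0.12, and by -0.41 without Control 3 h replicate 2, also not called. Each change at 24 h is therefore set against a control that was itself lower than at 1 h.

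Whether a response had changed between 1 and 24 h was tested by the difference of the 2 responses, called at an adjusted p under 0.05 alone. The response of g3611 was larger at 24 h by 1.28 on the log2 scale in trehalose (SE 0.28, adjusted p = 0.00025), by 1.14 in mannitol (SE 0.28, adjusted p = 0.000902) and by 0.97 in NaCl (SE 0.28, adjusted p = 0.00542). Such differences were common in these treatments, with 37.3%, 41.8% and 31.6% of all genes called, and after median ratio scaling the values of g3611 were 1.17, 0.74 and 0.74. In heat the difference was 0.53 (adjusted p = 0.296, 5.37% of genes called) and in paraquat 0.56 (adjusted p = 0.769), where 0% of genes were called and 308 had an unadjusted p under 0.05. Neither was called.

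**Figure D2:**
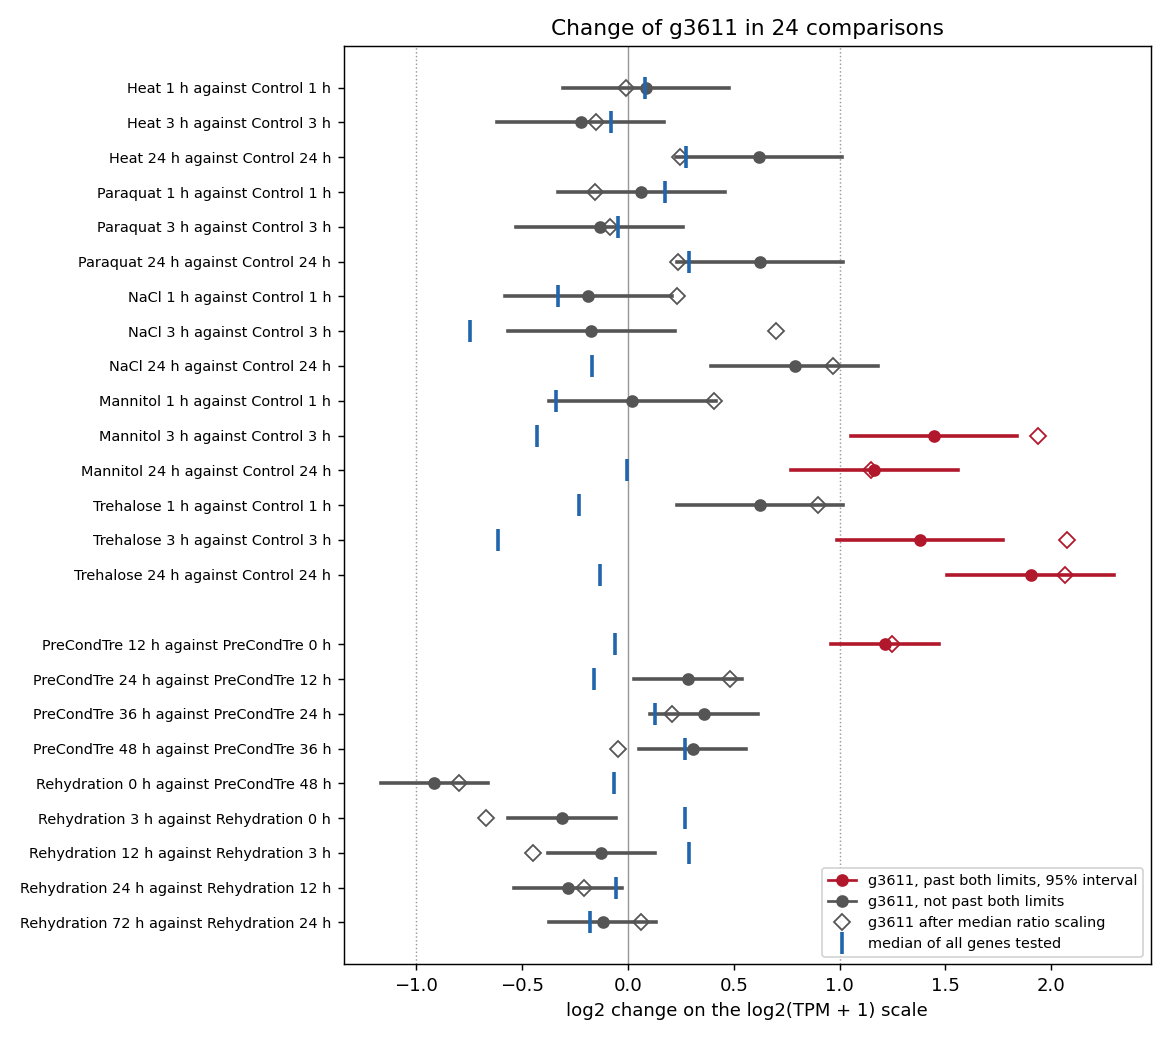
Log2 change of g3611 (horizontal axis, log2(TPM + 1) scale) in the 15 stress comparisons and the 9 comparisons of neighbouring time points, with 95% intervals. Red marks the 5 comparisons past both limits, open diamonds the change after median ratio scaling and blue ticks the median of all genes tested; the scaling turns the sign for Heat 1 h, Paraquat 1 h, NaCl 1 h, NaCl 3 h, PreCondTre 48 h and Rehydration 72 h.

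The 3 osmolytes were also compared directly at matched times, in 9 pairs. Trehalose and mannitol were each used at 600 mM, trehalose being a disaccharide and mannitol a linear sugar alcohol, while NaCl dissociates into ions. The sources give different NaCl concentrations and no match in osmolarity is known, so dose and kind of solute cannot be told apart. At 3 h trehalose had 493, 463 and 580.1 TPM, against 139, 208 and 178 TPM in NaCl, a log2 difference of 1.55 (SE 0.19, adjusted p = 1.01e-08) in a comparison that called 13.0% of genes. At 24 h trehalose had 451, 463 and 678 TPM, against 230.1, 229 and 263 TPM in NaCl, a difference of 1.11 (SE 0.19, adjusted p = 5.85e-06, 17.1% of genes called). Without Trehalose 24 h replicate 3 that difference was 0.93 and was no longer 2-fold. At 1 h it was 0.81 (adjusted p = 0.00195), not 2-fold, with 2.16% of genes called.

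NaCl lay below mannitol at 3 h, with 139, 208 and 178 TPM in NaCl, against 579, 553 and 474 TPM in mannitol. The log2 difference was -1.62 (SE 0.19, adjusted p = 5.10e-09), 15.9% of genes were called and the median gene was at -0.32. At 1 h the difference was -0.21 (95% interval -0.60 to 0.19, adjusted p = 0.698, 0.751% of genes called), and at 24 h it was -0.38 (95% interval -0.77 to 0.02, adjusted p = 0.108, 13.8% of genes called, median gene at -0.16). Neither was called.

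Trehalose and mannitol could be told apart by p at 24 h and not at 3 h. At 3 h their libraries overlapped and differed by -0.07 (95% interval -0.46 to 0.33, adjusted p = 0.835, 2.46% of genes called, median gene at -0.15), which became 0.14 after median ratio scaling. At 24 h trehalose had 451, 463 and 678 TPM, against 394, 297 and 259 TPM in mannitol, without overlap, a difference of 0.74 (95% interval 0.35 to 1.13, adjusted p = 0.00312) that stayed under 2-fold, with 4.76% of genes called and the median gene at -0.14. At 1 h trehalose had 329, 329 and 377 TPM, against 282, 201 and 205 TPM in mannitol, also without overlap, and the difference of 0.60 had an adjusted p of 0.0868 where 0.212% of genes were called. After median ratio scaling the difference at 1 h was 0.49 and passed the limit on p (adjusted p = 0.000296), still under 2-fold. The p-values of these 9 pairs are adjusted over all genes within each pair.

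In the time course g3611 climbed through preconditioning in trehalose and was lower after drying. At 0 h it had 354, 295 and 366 TPM, at 12 h 853, 883 and 639 TPM, at 24 h 1038, 963 and 866 TPM, at 36 h 1156, 1041 and 1519.5 TPM, and at 48 h 1492, 1534 and 1509.9 TPM. The lowest library at 12 h was above the highest at 0 h, the groups at 12 and 24 h overlapped, those at 24 and 36 h did not, and those at 36 and 48 h did. The step from 0 to 12 h was the only step between neighbouring time points past both limits, with a log2 change of 1.21 (SE 0.12, adjusted p = 1.19e-08), 2.32-fold, where 12.6% of genes were called.

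The later steps of preconditioning were each smaller than 2-fold. They were 0.28 (SE 0.12) for PreCondTre 24 h against 12 h, 0.36 (SE 0.12) for 36 h against 24 h and 0.31 (SE 0.12) for 48 h against 36 h, with adjusted p of 0.0707, 0.0725 and 0.0543. The shares of genes called were 5.76%, 0.212% and 4.29%, and the median gene moved by -0.16, 0.13 and 0.27. Scaling gave 0.48, 0.21 and -0.05 for the 3 steps, so that the last has no fixed direction.

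Against the start, the accumulated change was larger than any single step. It was 1.50 at 24 h, 1.86 at 36 h and 2.16 at 48 h on the log2 scale (SE 0.12 each, adjusted p = 3.05e-10, 5.44e-12 and 3.26e-13). The change at 48 h was 4.47-fold, with a 95% interval of 3.75 to 5.34, and was 1.89 on the log2 scale after median ratio scaling. These comparisons called 20.9%, 18.1% and 17.1% of genes, the median gene was at -0.21, -0.10 and 0.22, and 1.37% of genes had a larger change in this direction at 48 h.

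**Figure D3:**
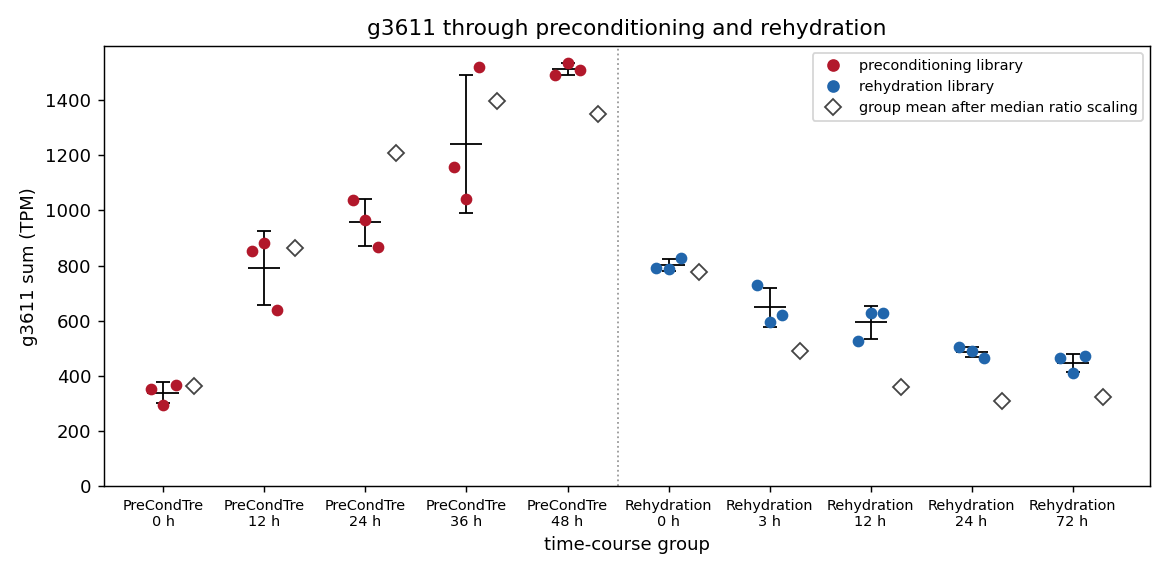
Summed TPM of the g3611 transcripts (vertical axis, from 0) in the 10 groups of the time course. Points are libraries, bars the mean ± SD of 3 libraries and open diamonds the group mean after median ratio scaling; the mean is 338 TPM at the start, 1512 TPM at 48 h of preconditioning and 802 TPM at 0 h of rehydration, and after scaling the groups from 12 h of rehydration on lie near or below the start.

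After drying the level of g3611 was lower, though not by 2-fold. Rehydration 0 h had 789.6, 787 and 829 TPM, against 1492, 1534 and 1509.9 TPM in PreCondTre 48 h. The replicates of both groups were tight and far apart, and the log2 change was -0.91 (SE 0.12, adjusted p = 2.00e-06), 1.88-fold lower, with 8.23% of genes called and 6.16% of genes lower than g3611. The value was -0.80 after scaling.

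During rehydration the libraries had 728, 596 and 620.4 TPM at 3 h, 526, 627 and 629 TPM at 12 h, 504, 491 and 465 TPM at 24 h, and 464, 411 and 471 TPM at 72 h. No step was called. The step from 0 to 3 h was -0.31 (SE 0.12, adjusted p = 0.0411), in a comparison where the median gene was higher by 0.27 and 8.57% of genes were called, and it was -0.67 after scaling. The following steps were -0.13 to 12 h (adjusted p = 0.408, 13.3% called, median gene at 0.29, -0.45 after scaling), -0.28 to 24 h (adjusted p = 0.13, 1.82% called) and -0.12 to 72 h (adjusted p = 0.486, 5.78% called, median gene at -0.18), of which the last turned to 0.06 after scaling.

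How far g3611 returned to its starting level depended on the scale. In TPM the dried cells were above the start by 1.25 at 0 h (adjusted p = 4.30e-09), which was called, and by 0.94, 0.81, 0.53 and 0.41 at 3, 12, 24 and 72 h, each with an adjusted p of at most 0.00514 but under 2-fold. The shares of genes called were 24.5%, 28.9%, 37.9%, 33.4% and 25.7%. The median gene was itself above its start, by 0.14 at 0 h, 0.47 at 3 h, 0.78 at 12 h, 0.73 at 24 h and 0.54 at 72 h. With median ratio scaling g3611 differed from the start by 1.09 at 0 h and by 0.42 at 3 h, but by -0.03 at 12 h, -0.23 at 24 h and -0.17 at 72 h.

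The preconditioned cells and the trehalose-stressed cells were exposed to trehalose in different media and different experiments, which cannot be told apart. At 24 h g3611 had 1038, 963 and 866 TPM in PreCondTre, and 451, 463 and 678 TPM in the stress experiment, and the start of the time course, at 295 to 366 TPM, lay above the controls of the stress experiment. No test was made across the experiments.

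The 17 transcripts of g3611 differed widely in abundance. t16 and t2 made up 23.3% and 21.7% of its TPM over all libraries, t6 15.0%, t8 13.9%, t12 7.01%, and each of the others under 5%. Only t2, t13 and t16 were above 1 TPM in all 84 libraries. t9 and t20 were listed at 0 throughout, t10 and t11 stayed under a mean of 1 TPM, and the other 13 were tested among 22728 transcripts. The counting software divides reads that several transcripts of a gene share by estimate, so the sum is better supported than any single transcript, and a transcript listed at 0 beside a high relative may be a matter of that division, which was not tested.

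Over the 24 comparisons, 37 of 312 tests of a g3611 transcript were called, 28 upwards and 9 downwards, or 11.9%, beside 7.60% of all transcript tests. With each replicate number left out in turn, 11 of the 37 calls were kept throughout, 4 of them of t13 and 4 of t2, with 2 of t6 and 1 of t16. At 1 h 2 transcripts were called, t13 in trehalose and t14 in paraquat, where 2.77% and 0.101% of all transcripts were called. t13, a minor form at 4.89% of the TPM, had 27.2, 31.9 and 30.5 TPM in trehalose, against 8.32, 9.78 and 8.99 TPM in the control, a log2 change of 1.62 (SE 0.22, adjusted p = 1.52e-06). t14 had 5.17, 10.8 and 0 TPM in paraquat, and was listed at 0 in each library of Control 1 h (2.06, adjusted p = 0.0129), a call that was lost without replicate 1 or replicate 2 of every group. In mannitol at 1 h t13 had 20.0, 12.4 and 13.4 TPM, above each control library but not called (0.67, adjusted p = 0.0402), although it passed both limits after median ratio scaling (1.03). In NaCl it had 9.03, 6.80 and 8.78 TPM.

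t13 also went the other way in NaCl while the gene sum was higher. At 24 h it had 6.72, 6.32 and 8.08 TPM in NaCl, against 17.4, 16.6 and 16.3 TPM in the control, and fell by 1.15 on the log2 scale (SE 0.22, adjusted p = 8.74e-05). Of all transcripts 15.1% were called in that comparison. In trehalose at 24 h t13 had 32.7, 35.4 and 55.5 TPM (1.21, adjusted p = 4.24e-05), beside 15.4% of all transcripts called. In mannitol it had 40.9, 30.5 and 33.7 TPM (1.01, adjusted p = 0.000689), beside 10.8%, and both changes were upwards. These 2 upward calls were lost without replicate 3 of every group in trehalose (0.96) and without replicate 1 in mannitol (0.92). The share of t13 in the gene was 2.92% ± 0.16 in NaCl at 24 h and 12.1% ± 1.2 in the control.

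t2 was called upwards at 24 h in all 5 stresses. Of all transcripts 15.4% were called in trehalose at that hour, 15.1% in NaCl, 0.598% in paraquat, 10.8% in mannitol and 0.827% in heat. It had 48.7, 69.9 and 160.1 TPM in trehalose, against 12.8, 6.67 and 13.7 TPM in the control, with a log2 change of 2.84 (SE 0.48, adjusted p = 1.18e-05), and 57.6, 52.2 and 83.2 TPM in NaCl (2.47, adjusted p = 9.58e-05). In paraquat it had 37.9, 61.4 and 62.1 TPM (2.21, adjusted p = 0.0206), in mannitol 89.2, 51.0 and 18.8 TPM (1.97, adjusted p = 0.00216), and in heat 59.8, 46.3 and 23.9 TPM (1.84, adjusted p = 0.0361). The same transcript had 65.8, 52.4 and 36.1 TPM in Control 1 h, a level near that of the stressed cells at 24 h. The calls in heat, paraquat and mannitol were each lost with at least 1 replicate number left out, and those in trehalose and NaCl were not.

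t6 set trehalose apart at 3 and 24 h by its values. After 24 h it had 188, 168 and 174 TPM in trehalose, against 29.8, 32.8 and 34.6 TPM in the control, a log2 change of 2.41 (SE 0.59, adjusted p = 0.00155), while mannitol had 48.0, 38.0 and 68.9 TPM and NaCl 66.7, 63.7 and 52.4 TPM. The call in trehalose at 24 h was lost with at least 1 replicate number left out. No test between the osmolytes was made for single transcripts. At 3 h t6 had 113, 128 and 184 TPM in trehalose, against 32.9, 0.07 and 36.4 TPM in the control, and the fitted change of 3.66 was 1.97 without the control library near 0. Mannitol had 75.8, 65.0 and 80.2 TPM at this hour, also called upwards (2.75), and NaCl had 45.6, 45.3 and 47.7 TPM. The call of t6 in NaCl at 3 h (2.09), beside 27.6% of all transcripts called, was lost without Control 3 h replicate 2, at 0.41.

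**Figure D4:**
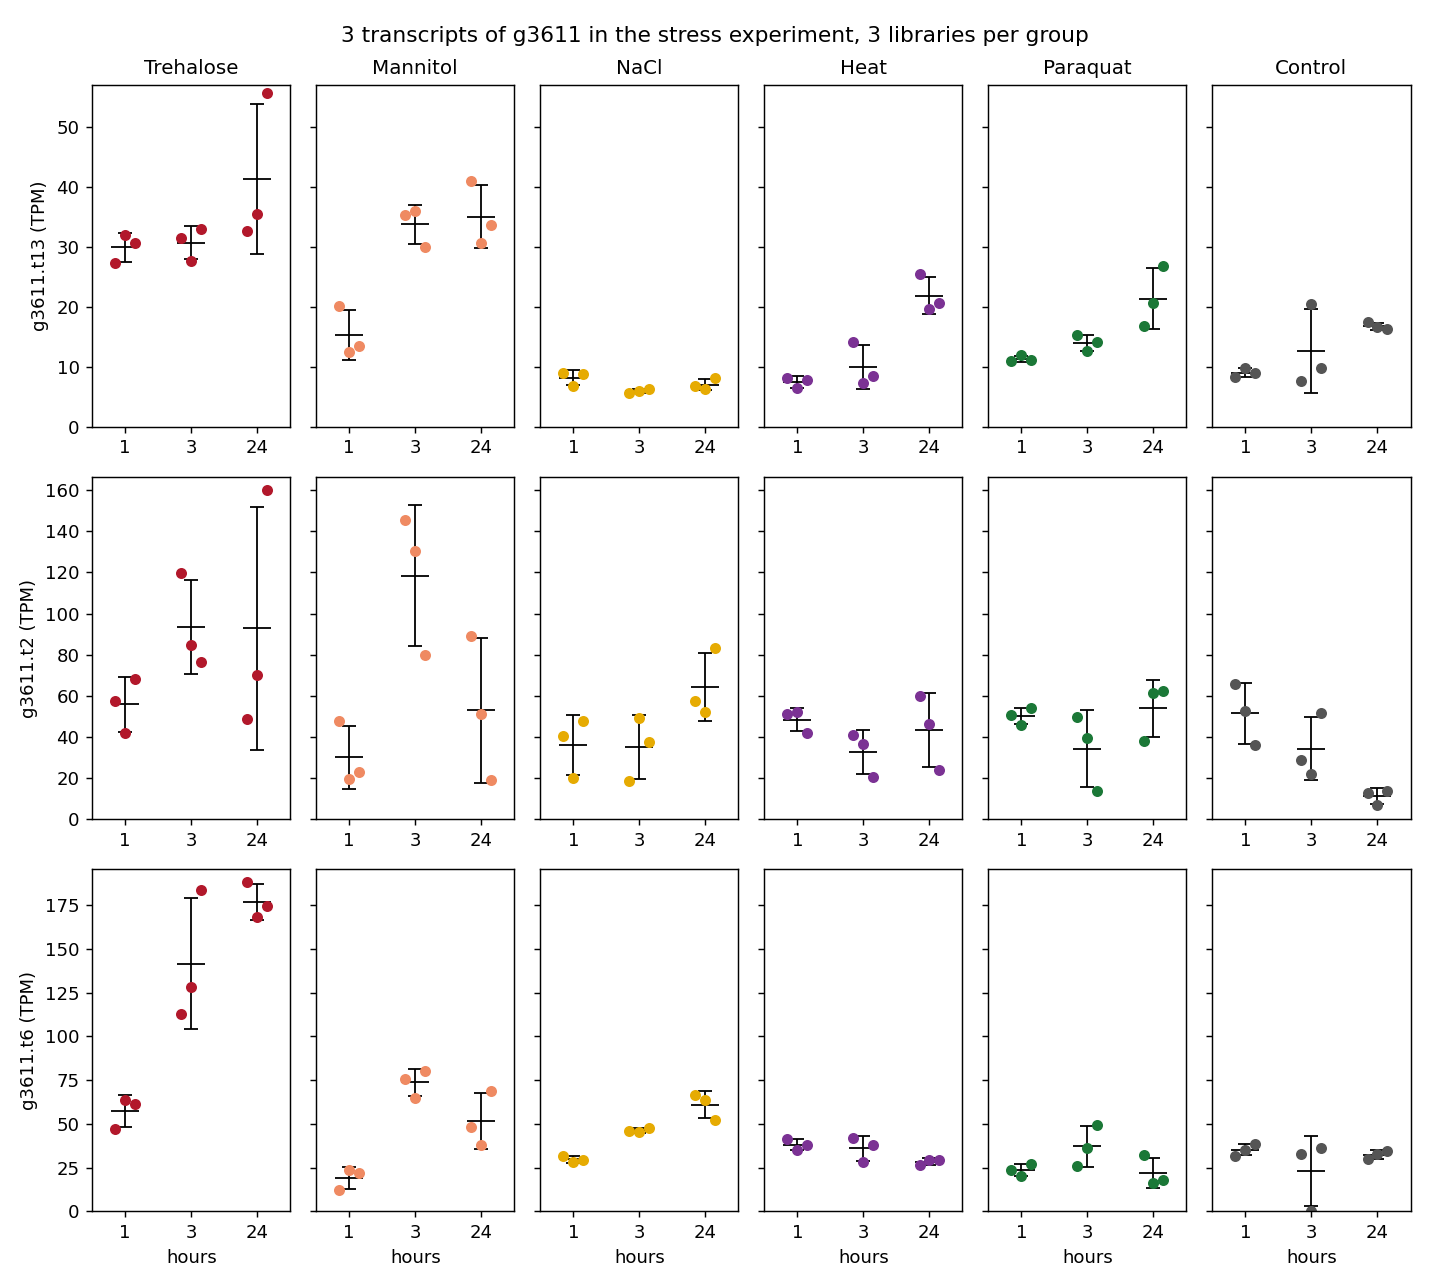
TPM of the transcripts t13, t2 and t6 of g3611 (vertical axes, each from 0) at 1, 3 and 24 h in the 6 treatments of the stress experiment. Points are libraries and bars the mean ± SD of 3 libraries; t13 is at 27.2 to 55.5 TPM in every trehalose library and at 5.60 to 9.03 TPM in every NaCl library, and t6 is at 168 to 188 TPM in trehalose at 24 h.

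In mannitol at 3 h, 6 transcripts (t1, t2, t6, t7, t13 and t16) were called upwards and t18 downwards, of 13 tested, where 19.8% of all transcripts were called. In trehalose at 3 h t2, t6, t13 and t16 were called upwards and t18 downwards, beside 22.7% of all transcripts, and at 24 h the same 4 were called upwards and t7 downwards, beside 15.4%. The calls of t18 rest on Control 3 h replicate 2 alone, which had 35.2 TPM where every other library of these groups was listed at 0. With each replicate number left out in turn, t6, t13 and t16 kept their calls in mannitol at 3 h. In trehalose t6 and t13 kept theirs at 3 h, and t2 at 24 h.

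In the time course t2, t8 and t16 were called upwards at 12 h of preconditioning, beside 10.3% of all transcripts. Only the call of t2 was kept with each replicate number left out in turn. t2 had 263, 292 and 141 TPM in PreCondTre 12 h, against 55.7, 59.2 and 72.0 TPM in PreCondTre 0 h (1.82, SE 0.29, adjusted p = 7.01e-05). Its mean was highest at PreCondTre 48 h, with 487, 451 and 520.5 TPM, when it made up 32.2% ± 2.6 of the gene.

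The set of transcripts listed for g3611 was different after drying. Transcripts t10, t12, t14, t17, t18 and t19, grouped after their values had been seen and so given without a test, made up 16.4% to 53.7% of the gene in all 15 rehydration libraries, with a median of 40.2%. Of these t10 was listed at 0 in every rehydration library, and its highest value, 40.6 TPM, was in Control 3 h replicate 2. The same 6 were above 1% of the gene in 5 of 15 preconditioning libraries, with a highest share of 22.9%, and in 7 of 54 stress libraries, with a highest share of 48.9% in Control 3 h replicate 2. The main one, t12, had 183, 257 and 196 TPM in Rehydration 0 h, against 0, 243 and 47.9 TPM in PreCondTre 48 h. It was already high in 1 library before drying, and its change of 3.20 was not called (adjusted p = 0.0885).

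**Figure D5:**
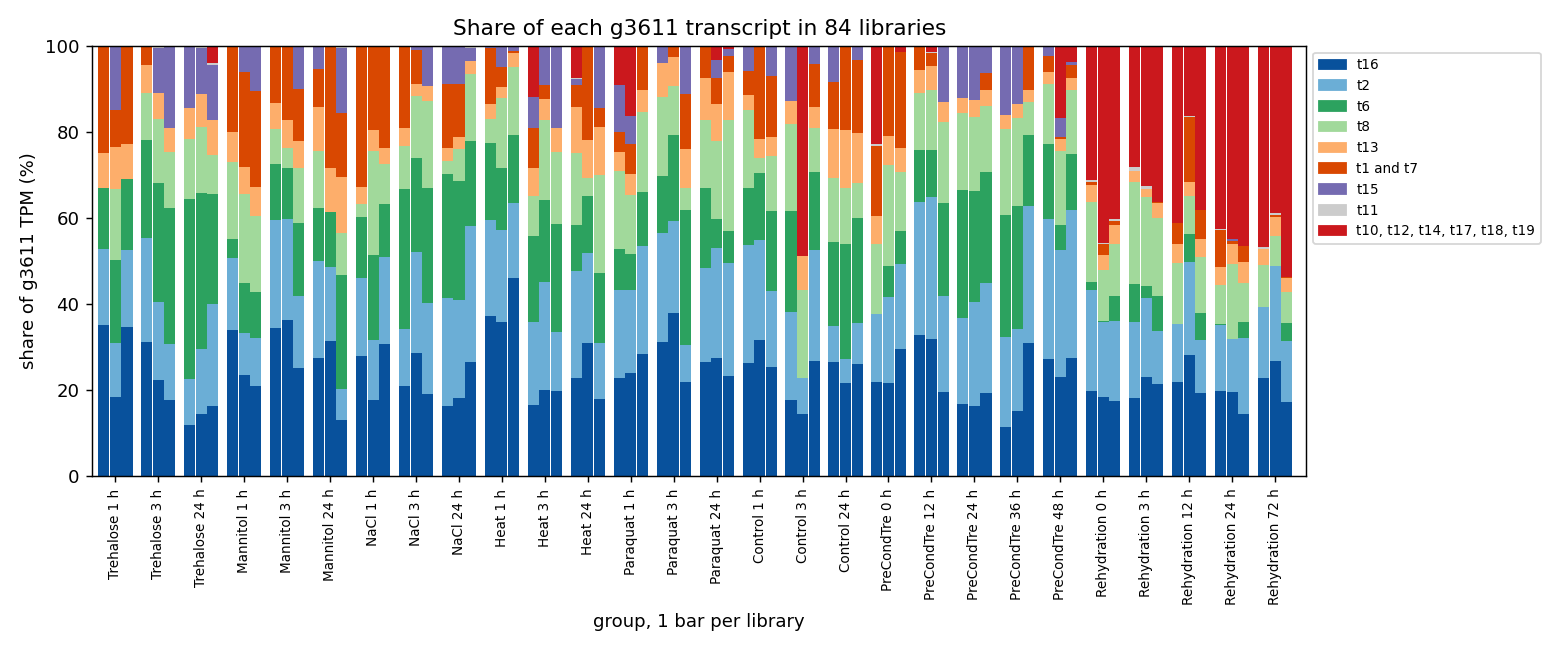
Share of each transcript in the TPM of g3611 (vertical axis, percent), 1 bar per library, in groups of 3 replicates for the 28 groups (horizontal axis). Red is the sum of t10, t12, t14, t17, t18 and t19, which takes 16.4% to 53.7% in the 15 rehydration libraries, where t10 is listed at 0, and 48.9% in Control 3 h replicate 2.

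Between PreCondTre 48 h and Rehydration 0 h, 4 of 13 transcripts were called downwards and 1 upwards, beside 12.4% of all transcripts. The falls were in t2 (185, 137 and 154 TPM in Rehydration 0 h, against 487, 451 and 520.5 TPM in PreCondTre 48 h, log2 change -1.62, adjusted p = 0.000344), t16, t8 and t15. Of these calls only that of t2 was kept with each replicate number left out in turn. t15 was listed at 0 in all 3 libraries of Rehydration 0 h and had 32.8, 67.2 and 7.73 TPM in PreCondTre 48 h. The rise was in t19, with 41.9, 19.6 and 69.1 TPM in Rehydration 0 h, against 0, 0 and 0.12 TPM in PreCondTre 48 h, though it was not called with any 1 replicate number left out. This transcript was above 1 TPM in 9 libraries, 8 of them in rehydration, so it entered the tests mainly through groups where it is high. Between 3 and 12 h of rehydration t1 and t14 were called upwards, beside 13.2% of all transcripts. Neither call was kept with each replicate number left out in turn.

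Transcript use, the change of a transcript relative to the rest of its gene, was tested with diffSplice of limma, at an adjusted p under 0.05. It called 15 of 312 tests of g3611, or 4.81%, beside 3.25% of all such tests. Since the measure is relative, a shift of 1 transcript can bring calls in its relatives. Drying gave 4 calls, upwards in t12 and t19 and downwards in t6 and t15, in a comparison that called 11.5% of all transcripts. Of these t19 entered the tests mainly through its rehydration libraries, so its call is not independent of the filter on mean TPM. In trehalose at 24 h t15 was called upwards and t1 and t7 downwards (4.70% of all transcripts), in mannitol at 3 h t1 and t7 upwards and t12 and t18 downwards (5.26%), and between 3 and 12 h of rehydration t1 and t14 upwards (6.76%). The 2 others were t6 in trehalose at 3 h (5.85%) and t15 in PreCondTre 24 h against 12 h (4.57%), both upwards. The call of t6 was lost without Control 3 h replicate 2. In mannitol at 3 h the calls of t7, t12 and t18 were lost without it too, t12 and t18 being listed at 0 in every other library of the comparison. The estimates of these transcripts moved against each other between replicates of 1 group. In Trehalose 1 h t15 was listed at 0, 48.1 and 0 TPM, and t1 had 46.1, 13.9 and 47.5 TPM in the same 3 libraries.

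Genes tied to HSF in the study were read beside it. The genes listed as Block 4, 4 in number from g16205 (PvLea5) to g16208 (PvLea11), lie in a cluster rich in genes for late embryogenesis abundant (LEA) proteins, which protect dried cells, and the study described heat shock elements upstream of most genes of the Block. The study's main text counts more orthologs in the Block than this list holds, so the list may be incomplete. Those upstream sequences were not read here, and the study chose the Block on these samples, so its counts are not independent evidence of a direction. All 4 were called upwards in trehalose at 24 h, with log2 changes from 1.36 (g16205) to 2.01 (g16208) and a median of 1.48 beside -0.13 over all genes, the comparison in which g3611 changed by 1.90. Of all genes 17.3% were called there, 6.99% upwards. All 4 were also called upwards in PreCondTre 12 h against 0 h, from 1.71 (g16205) to 2.14 (g16207), beside 1.21 for g3611. In that step 12.6% of all genes were called, 6.24% upwards.

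In other comparisons the calls were mostly not shared, and the difference between Block 4 and g3611 was not tested. In mannitol at 24 h, where g3611 was called at 1.16, 1 of the 4 was called upwards and the Block had a median of 0.77. The gene that rose most was g16208, with 2059 ± 463 TPM, against 830 ± 111 TPM in the control. Of all genes 13.2% were called there, 8.46% upwards. In trehalose and mannitol at 3 h none of the 4 was called, with medians of 0.0039 and 0.051, or 0.12 and 0.17 without Control 3 h replicate 2, while g3611 rose by 1.38 and 1.45, although g16208 passed both limits in each after median ratio scaling (1.42 and 1.33). In NaCl at 24 h g16205 (2.04) and g16208 (1.59) were called upwards, while g16206 (0.81), g16207 (0.97) and g3611 (0.79) were higher and under 2-fold. Of all genes 19.0% were called there, 7.75% upwards. From 12 to 48 h of preconditioning none was called at any step, and the medians of the Block were -0.66, -0.16 and -0.15 while g3611 had 0.28, 0.36 and 0.31. After heat none was called at any hour, with a median of 0.10 at 1 h. Between 3 and 12 h of rehydration g16205 (-1.02) and g16208 (-1.05) fell, in a step that called 13.3% of genes.

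NF-Y is a transcription factor of 3 subunits that binds CCAAT boxes in promoters, and the study names NF-YA (g7210), NF-YB (g5893) and NF-YC (g11889). Calls of its subunits in the stress experiment were all downwards and all in the osmolytes. In trehalose at 3 h all 3 were called downwards, by -1.58, -1.73 and -1.03, in mannitol at 3 h NF-YA (-1.34) and NF-YB (-1.60) were, and in NaCl at 3 h NF-YB (-2.14) and NF-YC (-1.75) were. The same subunits were called without Control 3 h replicate 2. These are changes in share, and the median gene was at -0.62, -0.43 and -0.75 there. Of all genes 30.2% were called in trehalose at 3 h, 25.2% in mannitol and 40.0% in NaCl, mostly downwards. After median ratio scaling only NF-YB stayed past both limits at 3 h (-1.07 in trehalose, -1.13 in mannitol, -1.33 in NaCl). NF-YA had 30.7 ± 2.8 TPM in trehalose at 24 h, against 81.2 ± 7.3 TPM in the control (-1.37), and was called with scaling too. In TPM 17.3% of genes were called in that comparison. No subunit was called after heat or paraquat or during preconditioning. NF-YA was lower after heat at 3 h (-0.69, adjusted p = 5.97e-11) and 24 h (-0.46, adjusted p = 2.65e-06), both under 2-fold. The median gene was at -0.08 and 0.27 there. NF-YC was -1.02 at drying and 1.08 at the next step, both called in TPM, as were 8.23% and 8.57% of genes, and neither after scaling.

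The genes whose pattern was most like that of g3611 were taken as the 5 with the highest Pearson r over the 28 group means of log2(TPM + 1), centred within each experiment. They were g17029 (r = 0.905), g13107 (0.894), g2734 (0.893), g3261 (0.889) and g5325 (0.887), of 9449 other genes. Within the 18 stress groups their r lay between 0.887 and 0.928, and within the 10 time-course groups between 0.843 and 0.922. The files do not pair these identifiers with names. The points share libraries and the scale of TPM, so r is a description. Over all 84 libraries 4 of the 5 were again among the first 5, and by Spearman rho 2 were. g5325 had 776 TPM in PreCondTre 48 h, against 145 TPM in PreCondTre 0 h, and 169 TPM in Heat 1 h, against 104 TPM in Control 1 h, where g3611 was level.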

How the data were processed

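The authors mapped reads to the coding sequences of their gene set Pv5.2.4 with Bowtie2 and estimated abundance with RSEM through Trinity; RSEM and DESeq2 are also named in the submitters' processing notes. The deposited table holds TPM per transcript for 84 libraries, and all 84 columns were used. TPM carries no depth and no scaling between libraries. The authors' counts were not used here.

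Columns were matched to groups by name. Transcripts were summed per gene. The log2(TPM + 1) values were fitted by limma 3.58.1 (trend, moderated variance; R 4.3.3), for genes or transcripts with a mean TPM above 1, fitting the stress and time-course libraries separately with 1 coefficient per group. p-values are two-sided and Benjamini-Hochberg adjusted over all rows. Calls need an adjusted p under 0.05 and a fold above 2. Fold changes on this scale understate low values. Transcript use was tested with diffSplice. The limma group fit and diffSplice were tested on simulated data, though not in every comparison, and the other steps were not. Figures used matplotlib 3.10.9.

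The members, the gene lists and the tests were chosen with earlier results of these data known. Named are g3611, its transcripts, the 7 genes the study ties to HSF or NF-Y by identifier, and the 5 genes most alike. No heat shock protein list was made, since 0 of 18248 identifiers matched the reference table, and no sequence is shown for the same reason. Alternatives were no trend, other filters and pseudocounts, fits of other sets of libraries, median ratio scaling, sample weights, a replicate block, single libraries left out, a stricter threshold and a sum of the tested transcripts.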

Additional observations from a re-analysis of the deposited data

Results flagged for a closer look

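The response of g3611 differed between 1 and 24 h in 3 treatments, by a test of the difference itself. The difference (24 h minus 1 h, each against its control) was 1.28 in trehalose, 1.14 in mannitol and 0.97 in NaCl on the log2 scale. Control 24 h was lower than Control 1 h by 0.68 on the same scale, a value that enters each of these differences, and its part in them was not tested.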

How the results depend on the processing

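Of 24 comparisons, 5 were called for g3611, and 5 were called under each other setting tried, except without Mannitol 24 h replicate 1 (4) and under a stricter threshold (adjusted p under 0.001 and fold above 4), which called 0 of the 24. That threshold ended the calls of Mannitol 3 h (1.45), Mannitol 24 h (1.16), Trehalose 3 h (1.38) and Trehalose 24 h (1.90) against the control, of PreCondTre 12 h (1.21), 24 h (1.50), 36 h (1.86) and Rehydration 0 h (1.25) against PreCondTre 0 h, of Trehalose 3 h (1.55) and 24 h (1.11) against NaCl, of NaCl 3 h against Mannitol 3 h (-1.62) and of the NaCl response at 24 h against 1 h (0.97); it moves the limits and not the values.

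Median ratio scaling turned the sign, none of it in a called comparison, of Heat 1 h (-0.0082), Paraquat 1 h (-0.16), NaCl 1 h (0.23) and NaCl 3 h (0.70) against the control, of PreCondTre 48 h (-0.046) and Rehydration 72 h (0.060) against the preceding point, of Rehydration 12 h (-0.025), 24 h (-0.23) and 72 h (-0.17) against PreCondTre 0 h, and of Trehalose 3 h against Mannitol 3 h (0.14). Sample weights turned Paraquat 3 h (0.046), NaCl 1 h (0.0034) and Mannitol 1 h (-0.14) against the control and NaCl 1 h against Mannitol 1 h (0.15), and brought the change of response in heat (0.62) and paraquat (0.66) past the threshold; the cause was not tested. With each library left out alone, 308 of 318 values kept direction and call. The ranges of those that did not were 0.996 to 1.30 for Mannitol 24 h against the control, 0.93 to 1.22 for Trehalose 24 h against NaCl 24 h, and, with a change of sign, -0.32 to 0.047 for NaCl 1 h, -0.14 to 0.11 for Mannitol 1 h, -0.37 to 0.080 for Paraquat 3 h and -0.41 to 0.040 for NaCl 3 h against the control, -0.41 to 0.040 for Control 3 h against Control 1 h, -0.35 to 0.026 for NaCl 1 h against Mannitol 1 h, and -0.16 to 0.0039 for Trehalose 3 h against Mannitol 3 h.

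The 37 transcript calls and 15 calls of transcript use became 36 and 9 with a pseudocount of 0.1, and ranged from 22 to 46 and from 9 to 21 with a replicate number left out. Without Control 3 h replicate 2, an alternative chosen after seeing the data, they were 33 and 13. With a replicate block, g3611 kept its 5 calls, and transcript calls were 40 and 16. Replicate numbers did not pair the libraries, since all 3 pairs correlated above 0.1 in only 2 of 24 comparisons. Precision is limited by 3 libraries per group and by an unknown depth.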
